A study of Rattus norvegicus with 8 samples.

Results

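Connexins and pannexins are membrane channel proteins, and 9 of their genes were described here in spinal cord (lumbar segments L6S1) after chronic water avoidance (WA) stress in the rat. The genes were Gja1, Gjb6, Gjb2, Gjb1, Gjc3, Gjd2, Gjc1, Panx1 and Panx2. They were picked by name, as the gap junction and related channel genes of astrocytes, oligodendrocytes and neurons, and the rule itself uses no value of these arrays, although earlier results of these data were known when it was set. The files carried 8 of the 9 under these symbols, among 26514 gene names. The remaining gene, Gjc1, was found under its older symbol Gja7, whose RefSeq accession is assigned to Gjc1. That match was made after the files had been opened. Each of the 9 genes had 1 probe, and each probe was well above background on all 8 arrays.

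The series compared 4 stressed and 4 control male Wistar rats, 12 weeks old, with no genetic modification given for either group. Stressed rats spent a daily session on a platform surrounded by water for 10 days, and their tissue was taken 24 h after the last session, on day 11. Control rats were handled over these days. Cord was flushed out of the spine with saline, the meninges were removed, and total RNA of the whole segment was hybridised to Agilent 1-colour arrays, 1 array per rat.

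Connexins (Cx) assemble into hemichannels, and hemichannels of neighbouring cells dock to form gap junctions, through which ions and small metabolites pass. Astrocytes of the cord are coupled mainly by Cx43 (Gja1) and Cx30 (Gjb6), oligodendrocytes express Cx32 (Gjb1) and Cx29 (Gjc3) among others, and electrical synapses between neurons use Cx36 (Gjd2). Pannexins are related to the invertebrate gap junction proteins and work mainly as channels of single cells that release ATP. In whole tissue, fewer cells of a type and less RNA per cell cannot be told apart.

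A signal on these arrays is read by a single 60-base probe per gene, so the sequence fixes which stretch of a transcript each value reports. The last 30 bases of the probe are shown, 5′ to 3′, for the 6 genes on which the results below turn, with the hexamer AATAAA in capitals where it occurs.
Gja1: aatgtcgagttatcatgtgtttccctcttg
Panx2: gcctgacacacactttatttttactatgac
Gjb1: acaaggtgcacatctcagggacactgtggt
Gjc3: tcagagcgctctgtaagacacaaggacaca
Gjd2: ctttgagatatttctgccttctagattatg
Gjb2: gtcgttgggaagccattctgtaacAATAAA
Genome positions follow the files, which use rn4, and exons and UTRs were not analysed here. The Gja1 probe lies at chr20:35422026-35422085 on the plus strand, the Panx2 probe at chr7:127373871-127373930 on the plus strand and the Gjb1 probe at chrX:89455686-89455745 on the plus strand. The Gjc3 probe lies at chr12:17460899-17460958 and the Gjd2 probe at chr3:99861100-99861159, both on the minus strand. The Gjb2 probe, at chr15:36153667-36153726, and the Gjb6 probe, at chr15:36177768-36177827, are both on the minus strand with 24042 bases between them. The files give the Gjc1 probe as unmapped. The Gjb2 probe was the only one of the 9 that held AATAAA or ATTAAA, the common polyadenylation signals, read on the strand of the probe. Of all 30367 probes, 11.2% held one of the 2 hexamers.

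The position of a probe along its transcript, as the files number it, also differed between the genes. The Gjb1 probe starts at base 422 and the Gjc3 probe at base 675. Those of Gjc1, Gjb6, Gjd2, Panx1, Gjb2, Panx2 and Gja1 start at bases 1302, 1625, 1831, 1862, 2220, 2818 and 2898. Transcript lengths are not given here, so a start base does not give the distance to the 3′ end. The probes of Gja1, Gjb6 and Gjb2 were spotted 10 times on each array. For these probes the spots of 1 array had a median SD of 0.0434, 0.0431 and 0.0442 on the log2 scale.

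All values below are log2 signals relative to the 75th percentile of signals on that array, so that 0 stands for a signal equal to that percentile, and changes are stressed minus control. Signals of different probes depend on their sequence, and levels of different genes were therefore not ranked. P values come from limma, with Benjamini-Hochberg adjustment across the 23678 tested probes and a false discovery rate (FDR) threshold of 0.1. Exact p values on all arrays are two-sided, from all 70 choices of 4 of the 8 arrays, and cannot fall below 0.0286. With control replicate 2 left out, the choices were of 4 among the remaining arrays. Permutation of residuals, where named, used all orders of the 8 arrays and can fall lower. The labels do not say more of the rats than a replicate number, so the p values measure the spread between these samples.

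The arrays differed in a way that the groups did not explain, and it touched several of the 9 genes. On the first principal component of all tested probes, which held 54.1% of the variance, control replicate 2 lay at 46.1, beside the stressed rats at 8.23 to 34.5, while the other controls lay at -56.2 to -39.4. The same array stood with the stressed rats in the 5′ minus 3′ difference, the median over 1885 transcripts of the centred log2 signal of a 5′ probe minus that of a 3′ probe. It was 0.22 in control replicate 2 and 0.09 to 0.17 in the stressed rats, but -0.30 to -0.18 in the other controls. The 8 arrays shared 1 slide, where row 1 held the stressed rats and row 2 the controls, so row and group cannot be told apart. Rats of the same replicate number lay in the same column of the slide, and with that number as a block limma called 0 probes of the array, so the calls of single genes given below rest on the fit without it. The changes of the 9 genes are given with and without control replicate 2. In the fit without that array limma called 42.4% of all tested probes, and counts from that fit stand against this share.

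Among the 9 genes, Gja1 was higher and Panx2 lower in every stressed rat than in every control, and neither passed the FDR threshold. limma called 0 of the 9 probes at FDR below 0.1, against 3.74% of all tested probes. At an unadjusted p below 0.05, limma gave 4 of the 9, Gja1, Gjb1, Panx1 and Panx2, against 20.3% of all probes. Stressed and control values were fully separated at 2 of the 9, Gja1 and Panx2, against 12.1% of all probes. The change was above 0 in 5 genes and below 0 in 4, with a median of 0.10, next to a median of 0.06 over all tested probes.

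**Figure D1:**
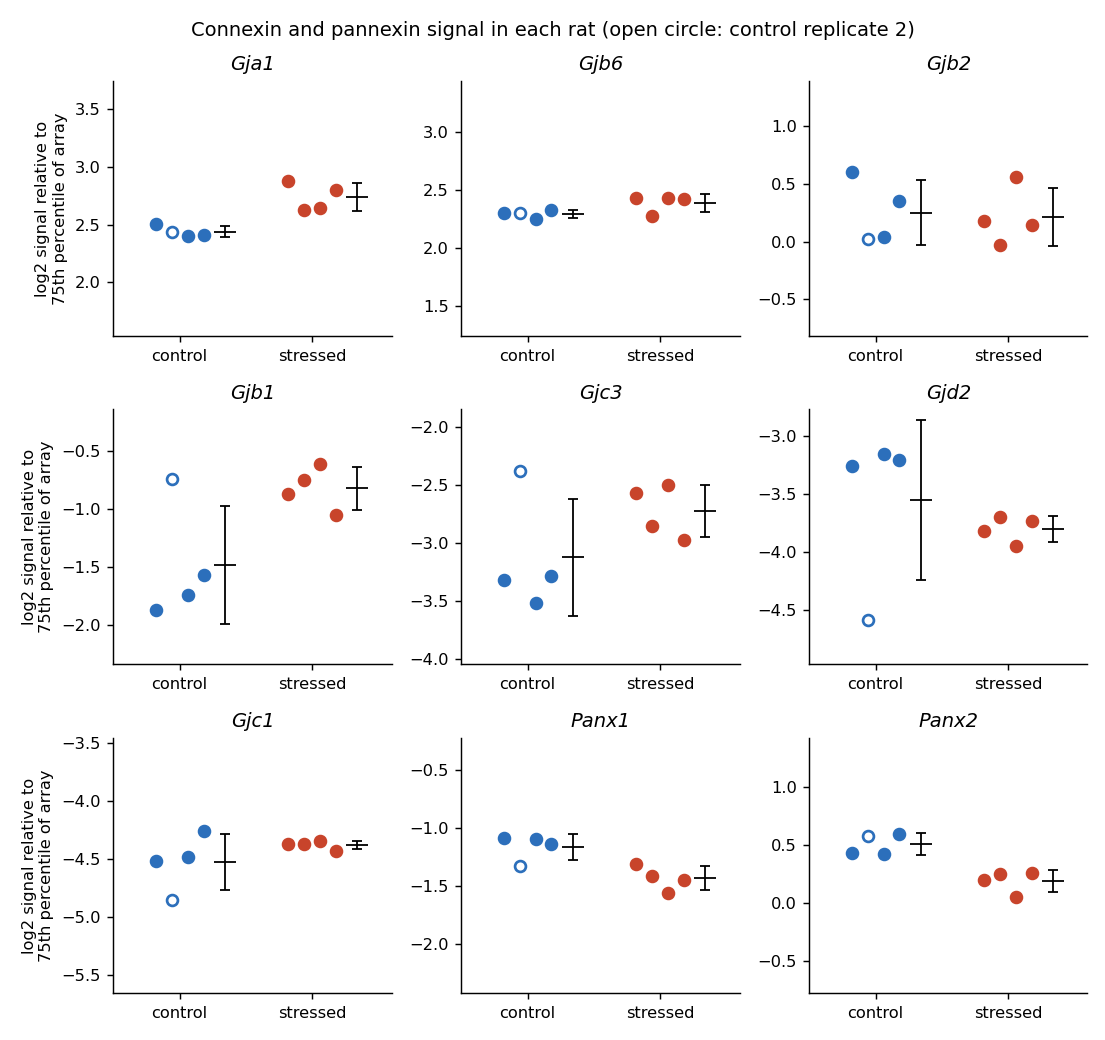
Signal of the 9 genes in each rat, as log2 relative to the 75th percentile of its array, with the mean and SD of each group of 4 beside the points and control replicate 2 as an open circle; every panel spans the same number of log2 units. The 4 stressed rats lie above all controls for Gja1 (2.63 to 2.88) and below all controls for Panx2 (0.05 to 0.26), while control replicate 2 lies apart from the other controls for Gjb1, Gjc3 and Gjd2.

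Gja1 encodes Cx43, the main gap junction protein of astrocytes. Its signal was 2.51, 2.43, 2.40 and 2.41 in control replicates 1 to 4. It was 2.88, 2.63, 2.64 and 2.80 in stressed replicates 1 to 4. The lowest stressed rat lay above the highest control, and the 4 controls, control replicate 2 included, fell within a narrow range. The change was 0.30 ± 0.08 (SE, 4 rats per group), a 1.23-fold higher signal, with a 95% interval of 0.12 to 0.49. The exact permutation test gave p = 0.0286, the smallest it can give, and the adjusted p from limma was 0.120. Without control replicate 2, the change was again 0.30 and passed (limma, adjusted p = 0.0301).

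Gjb6 encodes Cx30, the other main connexin of astrocytes. Its signal was 2.31, 2.30, 2.25 and 2.33 in control replicates 1 to 4. It was 2.43, 2.28, 2.44 and 2.43 in stressed replicates 1 to 4. Stressed replicates 1, 3 and 4 lay above all controls, and stressed replicate 2 lay among them. The change was 0.10 ± 0.07 (SE, 4 rats per group), with an interval of -0.06 to 0.25, and the adjusted p from limma was 0.426. The change was again 0.10 without control replicate 2 (limma, adjusted p = 0.264).

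Gjb2 encodes Cx26, known in the nervous system from astrocytes and from the leptomeninges. Its signal was 0.60, 0.02, 0.04 and 0.35 in control replicates 1 to 4. It was 0.18, -0.03, 0.56 and 0.15 in stressed replicates 1 to 4. Both groups spread over the same range, with a change of -0.04 ± 0.17 (SE, 4 rats per group), an interval of -0.44 to 0.36 and an adjusted p of 0.908 in limma. The spread between rats was far larger than that between the 10 spots of an array, of which the scanner software marked 7 as outliers over the 8 arrays. The change was -0.12 without control replicate 2 (limma, adjusted p = 0.647), and its sign turned when control replicate 1 (0.078) or stressed replicate 2 (0.04) was left out.

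Markers of the cells that carry these connexins moved as follows. Of 10 astrocyte markers, limma called 0 at FDR below 0.1 and 1 at an unadjusted p below 0.05, and their median change was 0.25. The astrocyte filament gene Gfap changed by 0.81 (limma, adjusted p = 0.322), or by 1.20 without control replicate 2 (limma, adjusted p = 0.0234). With the 5′ minus 3′ value of the arrays as a covariate, Gfap changed by -0.15. The sign of the Gfap change on the arrays thus differed between fits. By RT-PCR, on RNA of the same samples and others, the paper reports significantly lower GFAP in stressed rats. The astrocyte enzyme gene Aldh1l1 changed by -0.08 (adjusted p = 0.477). The summed level of the list, in units of the 75th percentile, was 243 to 304 in controls, the highest being control replicate 2, and 285 to 337 in stressed rats. Sums of this kind, here and below, weigh the brightest probes most. By their log2 means in controls, these were Aldoc (7.32) here, Mbp (7.25) for oligodendrocytes and Nefm (6.62) for neurons. Leaving out control replicate 2, limma called 5 of the 10, all higher, at a background of 42.4% of all probes. Of 7 markers of meninges and fibroblasts, limma called 0, with 0 at an unadjusted p below 0.05 as well. Their summed level ran from 1.64 to 6.44 in controls and from 1.86 to 4.41 in stressed rats. Of 9 microglia and 5 ependymal markers, limma called 0, with 1 of each list at an unadjusted p below 0.05, and their median changes were 0.02 and -0.13. Leaving out control replicate 2 gave 1 call in each of these lists and 0 among the meningeal markers, at the same background of 42.4%. The part of these markers in the Gja1 and Gjb2 values was not tested.

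Gjb1 encodes Cx32, which oligodendrocytes and Schwann cells place in the outer parts of the myelin sheath. Its signal was -1.87, -0.74, -1.74 and -1.57 in control replicates 1 to 4. It was -0.87, -0.75, -0.62 and -1.05 in stressed replicates 1 to 4. Every stressed rat lay above control replicates 1, 3 and 4, and control replicate 2 lay within the range of the stressed rats. The change was 0.66 ± 0.24 (SE, 4 rats per group), the largest of the 9 in size, with an interval of 0.10 to 1.22. It did not pass (limma, adjusted p = 0.198; exact permutation test, p = 0.114). It was 0.91 without control replicate 2 and passed (limma, adjusted p = 0.00241). With the 5′ minus 3′ value entered in the fit as a covariate, it was 0.06 (limma, adjusted p = 0.760).

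Gjc3 encodes Cx29, a protein of myelinating glia. Its signal was -3.32, -2.38, -3.52 and -3.29 in control replicates 1 to 4. It was -2.57, -2.85, -2.50 and -2.98 in stressed replicates 1 to 4. Control replicate 2 lay above every stressed rat, and the other controls lay below them. The change was 0.40 ± 0.25 (SE, 4 rats per group), with an interval of -0.17 to 0.98 and an adjusted p of 0.383 in limma. It was 0.65 without control replicate 2 (limma, adjusted p = 0.0116) and turned to -0.19 with the covariate (limma, adjusted p = 0.447).

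Oligodendrocyte markers were, like Gjb1 and Gjc3, mostly on the higher side in stressed rats. Of 10 markers, 9 had a change above 0, with a median of 0.43. In limma, 4 of the 10 had an unadjusted p below 0.05, against 20.3% of all probes. limma called 1, Mog, a gene of the myelin surface, at 0.90 (adjusted p = 0.0721). The myelin enzyme gene Cnp changed by 1.69 (adjusted p = 0.181), with control replicate 2 at 2.84 and the other controls at 0.03 to 0.52. The basic protein gene of myelin, Mbp, changed by 0.27 (adjusted p = 0.474). The summed level of the list was 237 to 348 in controls, with control replicate 2 highest, and 261 to 357 in stressed rats. When control replicate 2 was left out, limma called 6 of the 10, all higher, with Mog at 1.03 and Cnp at 2.33, at a background of 42.4% of all probes. With the covariate limma called 0 of the 10, with Mog at 0.53 (adjusted p = 0.102) and Cnp at 0.24 (adjusted p = 0.606), at a background of 10.1%. Schwann cells, which also express Gjb1 and Gjc3, were present in uneven amounts by their markers. The summed level of 6 Schwann cell markers ran from 7.16 to 72.7 in controls and from 6.89 to 21.7 in stressed rats, and limma called 0 of the 6 (1 at an unadjusted p below 0.05), or 1 without control replicate 2. The part of either cell type in the Gjb1 and Gjc3 values was not tested.

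Gjd2 encodes Cx36, the main connexin of electrical synapses between neurons. Its signal was -3.26, -4.59, -3.15 and -3.21 in control replicates 1 to 4. It was -3.82, -3.70, -3.95 and -3.73 in stressed replicates 1 to 4. Every stressed rat lay below control replicates 1, 3 and 4, and control replicate 2 lay below every stressed rat. The change was -0.24 ± 0.31 (SE, 4 rats per group), with an interval of -0.96 to 0.47 and an adjusted p of 0.665 in limma. Without control replicate 2, it was -0.59 and passed (limma, adjusted p = 0.00220). With the covariate, it turned to 0.52 and passed in the opposite direction (limma, adjusted p = 0.0826). No direction can be given for Gjd2 from these arrays. The probe had 1 spot on each array.

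Gjc1 encodes Cx45, which is expressed in some neurons and in cells of vessel walls. Its signal was -4.51, -4.85, -4.48 and -4.26 in control replicates 1 to 4. It was -4.37, -4.37, -4.34 and -4.43 in stressed replicates 1 to 4. The stressed rats fell inside the range of the controls, with a change of 0.15 ± 0.12 (SE, 4 rats per group) and an adjusted p of 0.505 in limma. It was 0.04 without control replicate 2 (limma, adjusted p = 0.726), 0.35 with the covariate (limma, adjusted p = 0.152) and -0.045 after quantile normalization.

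Panx1 encodes pannexin 1, the widely expressed ATP release channel. Its signal was -1.08, -1.33, -1.10 and -1.14 in control replicates 1 to 4. It was -1.31, -1.41, -1.56 and -1.45 in stressed replicates 1 to 4. Stressed replicates 2, 3 and 4 lay below all controls, and stressed replicate 1 lay just above control replicate 2. The change was -0.27 ± 0.09 (SE, 4 rats per group), with an interval of -0.47 to -0.07. It did not pass (limma, adjusted p = 0.166; exact permutation test, p = 0.0571). The Panx1 change was -0.33 and passed without control replicate 2 (limma, adjusted p = 0.0144), and with the covariate it was -0.14 (limma, adjusted p = 0.384).

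Panx2 encodes pannexin 2, which is best known from neurons of the central nervous system. Its signal was 0.43, 0.58, 0.43 and 0.60 in control replicates 1 to 4. It was 0.20, 0.25, 0.05 and 0.26 in stressed replicates 1 to 4. The highest stressed rat lay below the lowest control, and control replicate 2 stood with the other controls. The change was -0.32 ± 0.08 (SE, 4 rats per group), or 0.802 of the control signal, with an interval of -0.50 to -0.13. The exact permutation test gave p = 0.0286, the smallest it can give, and the adjusted p from limma was 0.105, just past the threshold. The change passed without control replicate 2 (-0.30; limma, adjusted p = 0.0274) and with the covariate (-0.38; limma, adjusted p = 0.0782).

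Neuronal markers did not fall as a list. Of 9 tested, 7 had a change above 0, with a median of 0.09. In limma, 2 of the 9 had an unadjusted p below 0.05, against 20.3% of all probes. limma called 1, the neuronal enolase gene Eno2, which was lower by its brighter probe (-0.37, adjusted p = 0.0649), while its other probe changed by -0.04 (adjusted p = 0.934). The summed level of the list was 208 to 221 in controls and 201 to 236 in stressed rats. In the fit without control replicate 2, limma called 3 of the 9, with 2 higher and Eno2 lower, at a background of 42.4% of all probes. Of 5 markers of inhibitory interneurons, limma called 0, with 0 at an unadjusted p below 0.05 as well. The part of neuron content in the Panx2 and Gjd2 values was not tested.

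**Figure D2:**
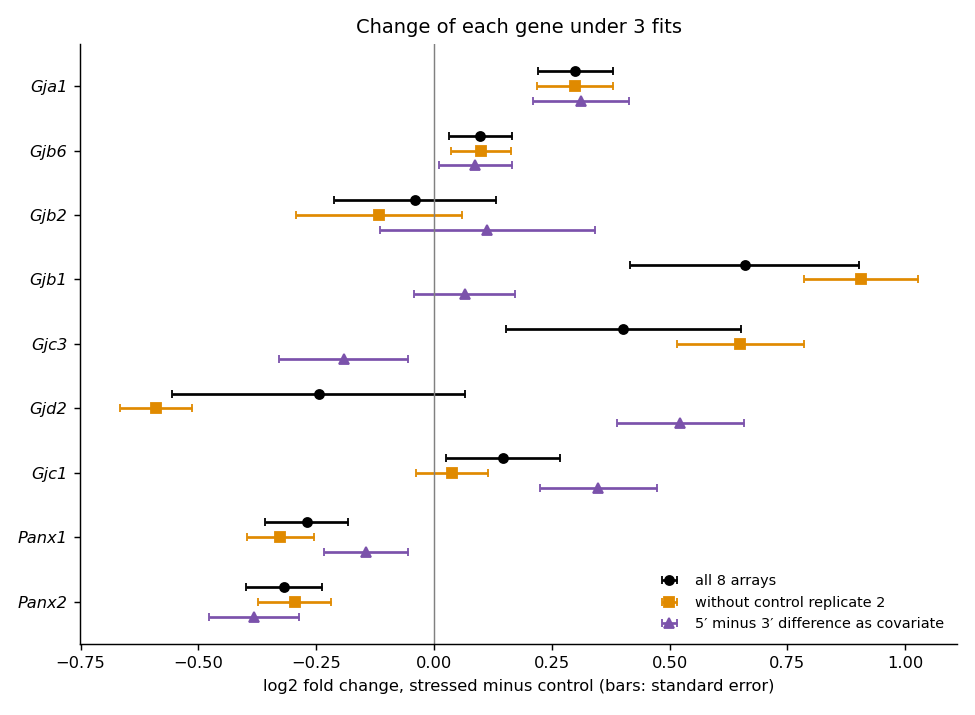
Change of each gene, stressed minus control on the log2 scale, with its standard error, from limma on all 8 arrays, without control replicate 2, and with the 5′ minus 3′ value as a covariate. Gja1 (0.30, 0.30 and 0.31) and Panx2 (-0.32, -0.30 and -0.38) moved little between the fits, Gjb1 ran from 0.06 to 0.91 and Gjd2 from -0.59 to 0.52.

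The 9 genes thus differed in how far control replicate 2 moved their values. Without it, limma called 6 of the 9 at FDR below 0.1 (Gja1, Gjb1 and Gjc3 higher, Gjd2, Panx1 and Panx2 lower), at a background of 42.4% of all probes. With the covariate on all 8 arrays, limma called 2 of the 9, Gjd2 and Panx2, at a background of 10.1%. Of the 9, Panx2 was the gene called in the same direction by both. The 2 fits are not independent checks, since both turn on control replicate 2. For Gja1 the change with the covariate was 0.31 (adjusted p = 0.129). Array weights from limma, which gave control replicate 2 a weight of 0.107, also gave 6 calls, at a background of 50.6%.

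**Figure D3:**
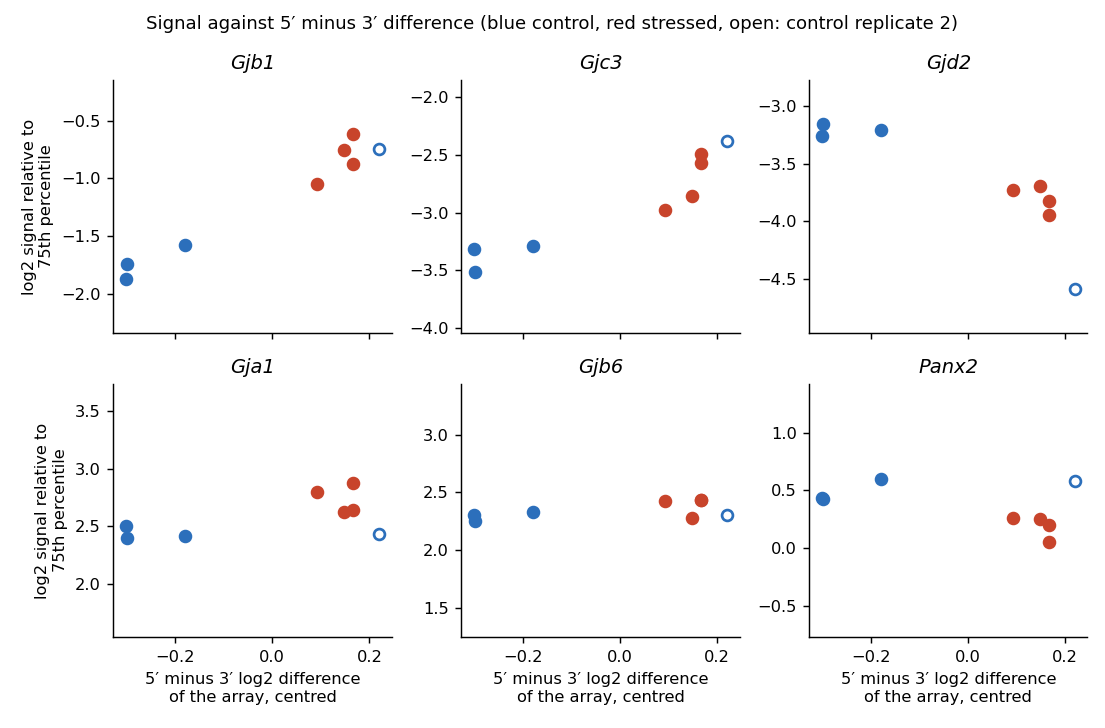
Signal of 6 genes, as log2 relative to the 75th percentile, against the centred 5′ minus 3′ log2 difference of each of the 8 arrays, with controls in blue, stressed rats in red and control replicate 2 open. For Gjb1 and Gjc3 the signal is higher, and for Gjd2 lower, on the arrays with a high difference, control replicate 2 (0.22) included; for Gja1, Gjb6 and Panx2 that array lies at the level of the other controls.

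The plot against the 5′ minus 3′ difference separates the genes by where control replicate 2 lies. For Gja1 it read 2.43, inside the 2.40 to 2.51 of the other controls, and for Panx2 it read 0.58, inside their 0.43 to 0.60. For Gjb1 it read -0.74, against -1.87 to -1.57 in the other controls. For Gjd2 it read -4.59, against -3.26 to -3.15. Control replicate 2, a single array, thus lay with the other controls at Gja1 and Panx2, and apart from them at Gjb1, Gjc3 and Gjd2. The part of transcript coverage in these values was not tested beyond the covariate, which follows the groups apart from control replicate 2.

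**Figure D4:**
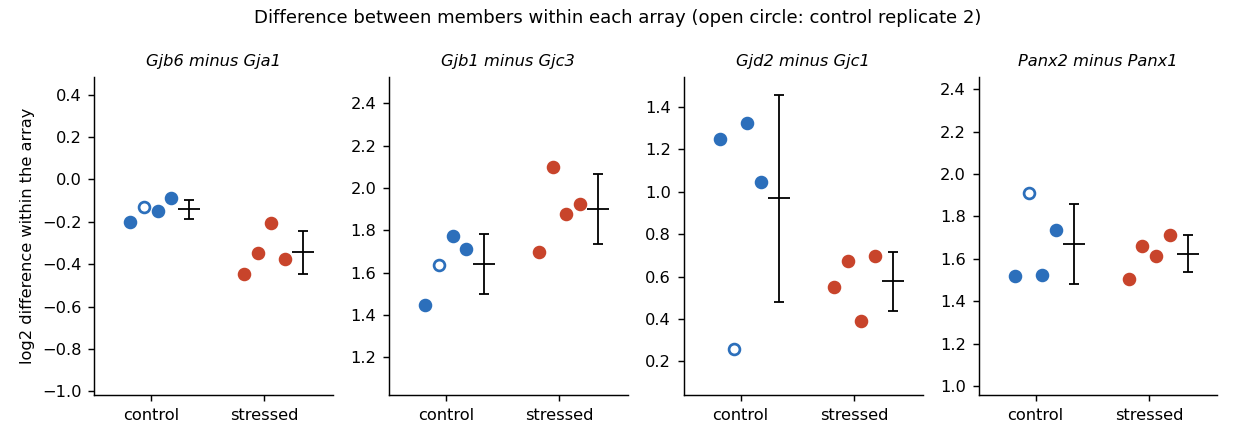
Difference between the log2 signals of 2 genes on the same array, for 4 pairs of related genes, with the mean and SD of each group of 4 and control replicate 2 as an open circle. Gjb6 minus Gja1 is lower in all 4 stressed rats (-0.45 to -0.21) than in all controls (-0.20 to -0.09), and the other pairs overlap.

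Related genes were also compared within each array, where the scaling of the array drops out. The offset between 2 probes has no meaning of its own, but its change between groups is the difference between the changes of the 2 genes. The pairs were 4, with a threshold of 0.05 after adjustment. A single pair at the smallest exact p, 0.0286, reaches 0.114 after adjustment, so it could not pass alone. Gjb6 minus Gja1 was -0.20, -0.13, -0.15 and -0.09 in control replicates 1 to 4, and -0.45, -0.35, -0.21 and -0.37 in stressed replicates 1 to 4. The groups did not overlap, though control replicate 1 and stressed replicate 3 lay next to each other. Gjb6 changed by 0.20 less than Gja1 (exact permutation test, p = 0.0286, or 0.114 adjusted over the 4 pairs), and by 0.20 less without control replicate 2. The pair did not pass after adjustment, and its adjusted p was 0.0571 with quantile normalization and 0.0536 with the covariate (permutation of residuals, change of -0.22).

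The groups overlapped for the other 3 pairs on all 8 arrays, and none passed. The change of Gjb1 exceeded that of Gjc3 by 0.26 (exact permutation test, p = 0.0857, adjusted 0.171), and without control replicate 2 again by 0.26. Gjd2 minus Gjc1 changed by -0.39 (exact permutation test, p = 0.171, adjusted 0.229), by -0.63 without control replicate 2 (exact permutation test, p = 0.0286, adjusted 0.114) and by 0.17 with the covariate. Panx2 minus Panx1 changed by -0.05 (exact permutation test, p = 0.686) and by -0.24 with the covariate (permutation of residuals, adjusted p = 0.0584).

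The 9 genes were set beside the other genes of their pathway, in 4 lists. Of the other connexins and pannexins, 14 were on the array and 9 were tested. limma called 0 of these 9 at FDR below 0.1 and 1 at an unadjusted p below 0.05, with a median change of -0.07. That gene was Gja4, which encodes Cx37 of the vessel wall. It read -2.25, -2.11, -2.18 and -2.26 in control replicates 1 to 4 and -2.42, -2.46, -2.44 and -2.47 in stressed replicates 1 to 4. The groups did not overlap, and the change was -0.25 (limma, adjusted p = 0.110). The other connexin of vessels in this list, Gja5 (Cx40), changed by 0.23 (limma, adjusted p = 0.708). Of 6 endothelial markers, 5 had a change above 0, and limma called 1, the endothelial adhesion gene Pecam1, at 0.40 (adjusted p = 0.0927). At an unadjusted p below 0.05, limma gave 2 of the 6, against 20.3% of all probes. Leaving out control replicate 2 gave 3 calls among the 6, at a background of 42.4% of all probes. The part of endothelial cells in the Gja4 value was not tested.

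Scaffold and adhesion partners of gap junctions numbered 11 tested genes, of which limma called 1, Ctnnb1, which encodes the junction protein beta-catenin. At an unadjusted p below 0.05, limma gave 4 of the 11, against 20.3% of all probes. Ctnnb1 changed by 2.61 (adjusted p = 0.0865), with control replicate 2 at -1.65, nearer to the stressed rats (-1.10 to -0.90) than to the other controls (-4.70 to -3.95). Its change was 3.27 without control replicate 2 and 1.11 with the covariate. The tight junction scaffold gene Tjp1, whose protein binds Cx43, changed by 0.12 (adjusted p = 0.649), and the astrocyte water channel gene Aqp4 by 0.26 (adjusted p = 0.263).

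Among the kinases that phosphorylate connexins, 11 genes were tested, and limma called 0 at FDR below 0.1 and 4 at an unadjusted p below 0.05. The median change of these kinases was 0.12. The protein kinase C genes Prkca and Prkce changed by 0.18 and -0.48, and the MAP kinase gene Mapk3 by 0.12. Adjusted p values of these 3 ran from 0.246 to 0.658 in limma. Leaving out control replicate 2, Prkca and Prkce changed by 0.39 and -0.69 and passed (limma, adjusted p = 0.0139 and 0.00286), and with the covariate Prkca changed by -0.29 and Prkce by -0.0027. In the 4 lists without control replicate 2, limma called 1 of the other connexins (Gja4), 6 of the scaffold genes, 7 of the kinases and 2 of the pannexin partners, at a background of 42.4% of all probes.

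Partners of pannexins in ATP signalling were 10 tested genes, of which limma called 0, with 0 at an unadjusted p below 0.05 as well. The ATP receptor genes P2rx4 and P2ry1 changed by -0.30 and -0.04, and the ATP-degrading enzyme genes Entpd1 and Nt5e by -0.40 and 0.21. The inflammasome genes Casp1 and Pycard, whose products are known partners of pannexin channels, changed by 0.03 and -0.04. None of these 6 passed in limma (adjusted p of 0.377 to 0.912).

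Among the genes of these lists, those whose pattern over the 8 arrays lay closest to single members were also sought, by the root mean square difference of the centred log2 signals. For Gjb1 it was Mlc1, an astrocyte membrane protein gene, at 0.0551, where Gjb1 itself varied by 0.467 around its mean. For Gjc3 it was Csnk1e, a casein kinase gene, at 0.104, with 0.396 for Gjc3 itself. For Panx1 it was Prkaca, a catalytic subunit gene of protein kinase A, at 0.0607. For Gja1 it was the microglial receptor gene P2ry12 at 0.0992, and for Gjb6 the adenosine receptor gene Adora1 at 0.0504, where Gjb6 itself varied by only 0.0709. For Gjd2 it was Prkce at 0.224, with 0.446 for Gjd2 itself. The arrays share their slide and their coverage differences, so these distances describe the 8 arrays only.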

How the data were processed

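The authors deposited 8 files written by the scanner software (Agilent Feature Extraction, version 10.7.3.1), with an intensity per spot, background-subtracted and detrended within the array according to the file headers. A further deposited set of values holds the same intensity rounded (largest difference 0.05). The paper names dChip, without its normalization or test, so neither was repeated. Control spots (4259) and spots marked as outliers were left out. The log2 processed signal was reduced by the 75th percentile of its array, and repeated spots were averaged per probe. Of 30367 probes, 23678 were tested, those above background (the scanner's flag, for at least 0.5 of the spots) on 4 or more arrays. The test was limma 3.58.1, with lmFit followed by eBayes and group as the sole term (R 4.3.3, with the data.table package in version 1.17.8). The flag was set for 23005 to 24066 probes per array, and the 75th percentile was 1841 to 2335 in controls and 1751 to 1945 in stressed rats. The number of arrays limits the precision.

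The 5′ minus 3′ difference used transcripts with probes at least 300 bases apart. Lists were read by their brightest probe per gene, 4 for the pathway and 9 for cell types. The 9 genes, the lists and the tests were chosen with earlier results of these data known. Genes of the lists were named where called, as the closest in pattern, as the brightest of a list, or for their role. Gja4, Cnp and Aldh1l1 were picked out after their values were seen. The fit was tested on simulated data. Alternatives were normexp background (offset 50), quantile normalization, the deposited table, no filter, a filter requiring all 8 arrays, a variance trend, array weights, a replicate block, the covariate, and leaving out each array. Summaries and figures were made with Python 3.11.15, NumPy 2.4.6, pandas 2.3.3 and matplotlib 3.10.9. Names of genes are those of the files, except Gjc1. The miRNA arrays and RT-PCR of the study were not analysed here, and some genes of the lists are not reported here.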

Additional observations from a re-analysis of the deposited data

Results flagged for a closer look

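Among 30 groups of 4 rats examined for a single rat far from the others, 3 were found, where chance gives about 1 in 20, or 1.5. Stressed replicate 2 read 2.28 for Gjb6, below the 2.43 to 2.44 of the other stressed rats, with a gap of 0.935 of the range of the group. Control replicate 2 read -4.59 for Gjd2, with a gap of 0.924 of the range of the controls. The same array lay at 46.1 on the first principal component, with a gap of 0.835 of the range.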

How the results depend on the processing

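Without control replicate 2, the calls among the 9 genes rose from 0 to 6, and leaving out each array in turn gave 0 to 6. They were 2 with quantile normalization (Gja1 and Panx2), with no filter, with the variance trend and with the covariate, 1 with the filter on all 8 arrays, and 6 with array weights. Over all probes, 885 calls became 229 with normexp, 3010 with no filter, 11983 with array weights, 2390 with the covariate and 0 to 10036 when each array was left out. Pathway list genes called, 1 on all arrays, were 2 with quantile normalization, with the filter on all 8 arrays and with the variance trend, 4 with no filter, 21 with array weights, 7 with the covariate and 0 to 16 when each array was left out. Marker genes called, 3 on all arrays, were 0 with normexp, 5 with no filter, 6 with the variance trend, 29 with array weights and 0 to 20 when each array was left out. With the replicate block, 0 of the 9 genes, 0 of the list genes and 0 probes passed, with 4292 probes at an unadjusted p below 0.05. Same-numbered rats deviated together with correlations of 0.0952, 0.120, -0.0869 and 0.305, so the numbers, which also mark the slide column, were not taken as pairs. The sign turned for Gjb2 (0.11 with the covariate, -0.15 to 0.078 when each array was left out), Gjc1 (-0.045 with quantile normalization), Gjc3 (-0.19) and Gjd2 (0.52) with the covariate, Gjd2 minus Gjc1 (0.17 with the covariate) and Panx2 minus Panx1 (0.0041 with quantile normalization, 0.031 without control replicate 2, the range when each array was left out being -0.10 to 0.031), and the cause was not tested. Gja1, Gjb1, Gjb6, Panx1 and Panx2 kept their sign under all 17 alternatives, Gja1 at 0.25 to 0.34 and Panx2 at -0.38 to -0.27.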
